A study of Mus musculus with 4 samples.

Results

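The 8 genes described here make, process and receive the vasoactive signals endothelin and nitric oxide in the kidney. They were chosen by symbol as *Edn1*, *Ednra*, *Ednrb*, *Ece1*, *Nos1*, *Nos3*, *Gucy1a1* and *Gucy1b1*, and all 8 were found among the 31053 genes counted. Single-nucleus RNA-seq, which counts RNA molecules of single nuclei in droplets, was performed on medulla-enriched kidney tissue of 4 male mice aged 12 weeks, with 1 library per mouse. The knockout mice, numbered 1 and 2, had the genotype Cre+,Tfap2aFlox/Flox and carried *Hoxb7Cre*, which is active in the ureteric lineage that forms the collecting duct. The control mice, also numbered 1 and 2, had the genotype Cre-,Tfap2aFlox/Flox, so all 4 mice carried the floxed alleles of *Tfap2a*, which encodes the transcription factor AP-2α. The deletion was therefore targeted to collecting duct and other ureteric epithelium, and vessel, interstitial, proximal tubule and thick ascending limb nuclei of knockout mice were not its target.

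Endothelin-1 is a vasoconstrictor peptide that is made as a precursor from *Edn1* and cut to its active form by the endothelin-converting enzyme encoded by *Ece1*. Its receptors are the endothelin A receptor (*Ednra*), known for constriction of smooth muscle, and the endothelin B receptor (*Ednrb*), known for nitric oxide release from endothelium and for inhibition of sodium transport in the collecting duct. Nitric oxide is made by neuronal nitric oxide synthase (*Nos1*) and endothelial nitric oxide synthase (*Nos3*), and it activates soluble guanylyl cyclase, a dimer whose α1 and β1 subunits are encoded by *Gucy1a1* and *Gucy1b1*, to form cyclic GMP. In the kidney this pathway is known for control of medullary blood flow, of tubuloglomerular feedback at the macula densa and of salt excretion.

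The libraries held between 22179410 and 44964099 unique molecular identifiers (UMIs, 1 per counted RNA molecule), and 27343 nuclei were kept, between 5430 and 7998 per mouse, with a median of 2628 UMIs. Of these, 25270 fell into 17 classes named from marker genes and 2073 were set aside as doublets, damaged or mixed. None of the 8 genes was used for clustering or naming, and each class name is short for nuclei like that cell type. Although the cortex had been trimmed, 13695 nuclei were proximal tubule, 114 were podocytes and 36 were macula densa, all cell types of the cortex or its border. Levels are given as CPM, the UMIs of a gene per 1000000 UMIs of the class in a mouse, and were not compared between genes because 3′ counts do not measure genes on 1 scale. Barcodes with under 100 UMIs hold mostly free RNA, and the level of a gene there is given for comparison. From proximal tubule markers, free RNA was estimated as only part of a class's UMIs (4.68% to 18.4% in other thick ascending limb, by mouse). A class at or under the level in free RNA was therefore not read as background alone. *Tfap2a* itself does not check the genotypes, since 3′ counts can include transcripts that lack the floxed exons. Its level in collecting duct principal cells was 57.1 and 98.2 CPM in control mice 1 and 2 and 66.0 and 106 CPM in knockout mice 1 and 2.

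The sequences before annotated starts of 4 of the genes are shown because AP-2 factors bind the motif GCCNNNGGC, and because the cyclase subunit genes lie side by side. In the mouse build GRCm38.p6 (mm10), *Gucy1b1* (chr3:82032004-82074711) and *Gucy1a1* (chr3:82092427-82145946) are both on the minus strand with 17715 bases and 0 annotated genes between them. *Ednra* lies at chr8:77663029-77724452, *Ednrb* at chr14:103814615-103844508, *Edn1* at chr13:42301476-42307990, *Ece1* at chr4:137862237-137965229, *Nos1* at chr5:117866839-117958840 and *Nos3* at chr5:24364816-24384474. RefSeq promoter windows were matched for 7 of the 8 genes, with 11 windows in all because some genes have several starts. The AP-2 motif, searched on both strands in the 250 bases before the start, occurred in 1 window of *Ednrb* and in 1 of the windows of *Gucy1a1*, and in 13.7% of 32851 windows of all genes. These stretches lie on the minus strand at chr14:103843878-103843906 and chr3:82145681-82145709, and capitals mark the motif. The motif lies 195 and 49 bases before the annotated starts used, chr14:103843701 and chr3:82145650. Both starts are internal to the gene spans given above, so both stretches lie within the annotated genes.
Ednrb: attgacgtatGCCCTTGGCcgctaggtgc
Gucy1a1: ttggcccgatGCCCCTGGCctcctgtgat
The windows of *Gucy1b1* (chr3:82074712-82074961) and *Ednra* (chr8:77724453-77724702), also on the minus strand, are given whole because these genes had the most similar levels across classes of any pair among the 8. Neither held the AP-2 motif, the AP-1 motif TGANTCA (found in 6.75% of all windows) or a CArG box, the motif of serum response factor (1.47% of all windows).
Gucy1b1: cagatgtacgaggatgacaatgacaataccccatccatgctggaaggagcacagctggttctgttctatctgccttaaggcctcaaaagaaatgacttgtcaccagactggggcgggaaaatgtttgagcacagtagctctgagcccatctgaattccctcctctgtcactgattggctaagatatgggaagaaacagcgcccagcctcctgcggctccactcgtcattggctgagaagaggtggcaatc
Ednra: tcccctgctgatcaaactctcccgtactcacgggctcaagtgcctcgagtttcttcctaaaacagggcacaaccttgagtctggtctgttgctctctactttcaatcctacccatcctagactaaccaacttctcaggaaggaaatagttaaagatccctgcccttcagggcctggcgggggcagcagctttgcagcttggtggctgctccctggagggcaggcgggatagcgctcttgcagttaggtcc
A match describes letters only and does not show that a factor binds there.

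The ligand, receptors, synthases and cyclase differed in the cell classes where they were highest. *Edn1* was highest in arterial and descending vasa recta endothelium, *Ednrb* in capillary and venous endothelium, *Nos1* in macula densa, *Nos3* in both endothelial classes, *Gucy1a1* and *Gucy1b1* in fibroblasts and mural cells, and *Ednra* in mural cells and fibroblasts. *Ece1* was highest in capillary and venous endothelium and was counted in 15 of the 17 classes. In nuclei of named classes the number of UMIs was 3766 for *Ece1*, 1431 for *Ednrb*, 450 for *Gucy1a1*, 199 for *Nos3*, 160 for *Nos1*, 153 for *Gucy1b1*, 92 for *Edn1* and 60 for *Ednra*, which limits the statements on the last of these to the classes with most UMIs.

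**Figure D1:**
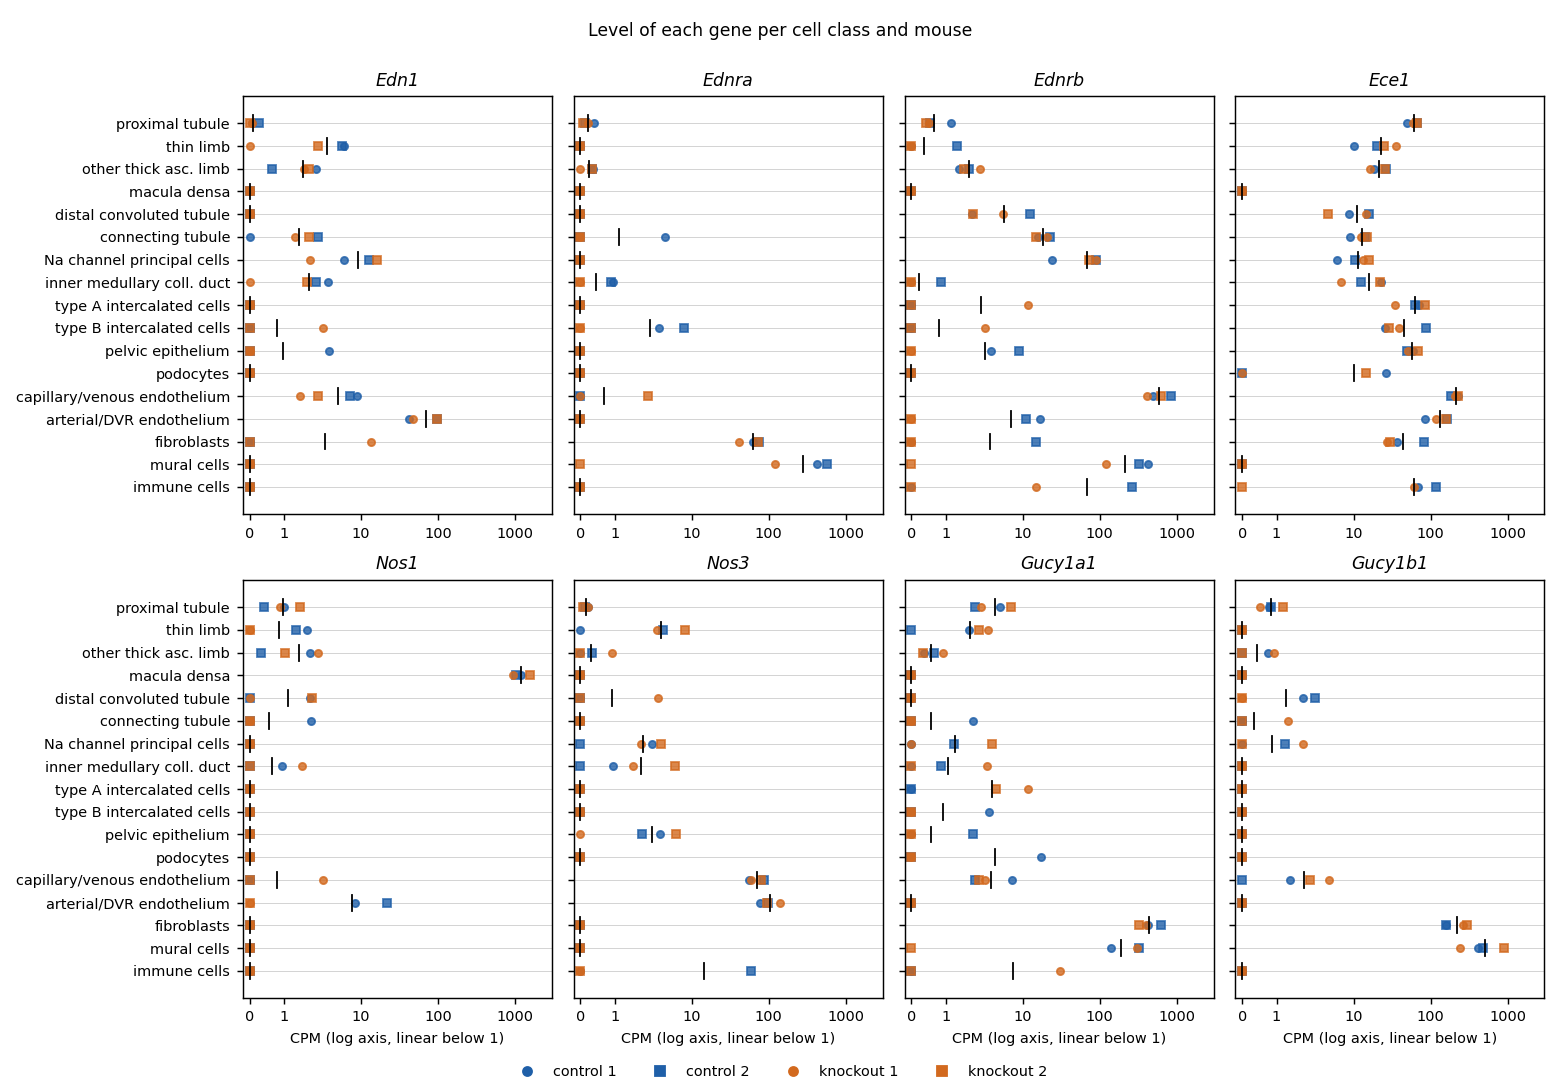
Level of each of the 8 genes (x axis, CPM, log scale that is linear below 1) in 17 cell classes (y axis) in 2 control and 2 knockout mice (points), with the mean of the 4 mice as a black bar. *Nos1* lay between 951 and 1569.8 CPM in macula densa and below 22 CPM in every other class.

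*Edn1*, the ligand, was highest in arterial and descending vasa recta endothelium. Its level there was 42.2 and 98.7 CPM in control mice 1 and 2 and 47.0 and 96.0 CPM in knockout mice 1 and 2 (mean 71.0 ± 30.5 CPM, SD, n = 4), from 19 UMIs in 139 nuclei. All 4 mice were above every other class, and the values of the genotypes overlapped. The next level was that of the principal cells of the collecting duct that express the epithelial sodium channel, at 6.10 and 12.9 CPM in control mice 1 and 2 and 2.21 and 16.1 CPM in knockout mice 1 and 2 (17 UMIs). Capillary and venous endothelium followed with 8.85, 7.17, 1.61 and 2.74 CPM in the same order of mice (11 UMIs). These 2 classes overlapped over the mice and so could not be ordered. In free RNA *Edn1* was between 0.794 and 1.67 CPM, and other thick ascending limb, at 1.80 ± 0.816 CPM, and connecting tubule, at 1.59 ± 1.205 CPM (SD, n = 4), lay near that level.

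*Ece1*, the processing enzyme, was the most widely counted of the genes, with at least 10 UMIs in 14 classes, compared with 6 for *Ednrb*. At least 1 UMI was found in 15 classes for each of them. Its level was highest in capillary and venous endothelium, at 226 and 182 CPM in control mice 1 and 2 and 209 and 230 CPM in knockout mice 1 and 2 (443 UMIs). Arterial and descending vasa recta endothelium came second with 84.4, 164, 118 and 160 CPM in the same order (35 UMIs). No value of the second class reached the lowest of the first. Type A intercalated cells, which secrete acid, had 63.2 ± 21.0 CPM and proximal tubule 60.8 ± 8.67 CPM (SD, n = 4), and these levels overlapped with each other and with pelvic epithelium at 56.7 ± 8.54 CPM. Because proximal tubule nuclei were so many, they held 2710 of the *Ece1* UMIs, or 72.0%. Free RNA held *Ece1* at between 25.3 and 35.7 CPM. Mean levels in thin limb (22.5 ± 10.5 CPM), other thick ascending limb (21.7 ± 5.13 CPM) and the principal cells (15.02 ± 5.18 CPM) lay below that range. Since free RNA was only part of the UMIs of these classes, this does not show that their *Ece1* UMIs were background.

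*Ednra*, the A receptor, was highest in interstitial cells, which held 40 of its 60 UMIs in named classes. Interstitial nuclei comprised 214 fibroblasts and a subcluster of 27 nuclei led by the renin gene *Ren1*, which had 5 of 5 markers of mesangial cells and 7 of 9 markers of pericytes and smooth muscle and is called mural cells. The largest fibroblast subcluster had 7 of 7 fibroblast markers but also 7 of 9 of those of pericytes and smooth muscle. The next had 7 of 7 and 6 of 9. These markers thus did not separate pericytes from the nuclei called fibroblasts. In mural cells *Ednra* was 418 and 561 CPM in control mice 1 and 2 and 121 and 0 CPM in knockout mice 1 and 2, from 12 UMIs in all. The values of control mice were higher, but the 0 comes from 3 nuclei and the other values from 4 to 13 nuclei. In fibroblasts it was 61.5 and 74.4 CPM in control mice and 41.1 and 73.3 CPM in knockout mice (28 UMIs), where the genotypes overlapped. Of the 28 UMIs, 25 lay in the largest fibroblast subcluster, led by *Hpgd* and *Nrxn3*, with 105 CPM over the 4 mice together, compared with 13.9 and 17.8 CPM in the other fibroblast subclusters, in which 31.3% and 29.6% of nuclei were called doublets. All other classes were at or below 2.88 CPM, the level of type B intercalated cells (2 UMIs), compared with up to 0.503 CPM in free RNA, and proximal tubule held 10 UMIs at 0.208 CPM.

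*Ednrb*, the B receptor, had a vascular and an epithelial site. In capillary and venous endothelium its level was 491 and 838 CPM in control mice 1 and 2 and 408 and 617 CPM in knockout mice 1 and 2 (mean 588 ± 187 CPM, SD, n = 4), from 1163 UMIs, 81.3% of those in named classes. The ranges of the genotypes overlapped. At least 1 UMI was found in 47.0% of these 1377 nuclei, compared with 0.219% of proximal tubule nuclei, although the median depth was 1414 UMIs in the former and 3181 UMIs in the latter. With each nucleus thinned to 1000 UMIs the shares were 37.0% and 0.141%.

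In the epithelium, *Ednrb* reached 24.4 and 90.01 CPM in sodium channel principal cells of control mice 1 and 2 and 88.6 and 72.2 CPM in those of knockout mice 1 and 2 (136 UMIs). Control 1 was low and the other mice lay close together. In connecting tubule, the segment upstream, the values were 15.9 and 22.5 CPM in control mice and 21.0 and 14.98 CPM in knockout mice (37 UMIs), next to 10.7 to 16.3 CPM in free RNA. Sodium channel principal cells were above connecting tubule in every mouse. In the principal cells of the inner medullary collecting duct, downstream, 1 UMI of *Ednrb* was found in 724 nuclei. Further UMIs lay in mural cells (9 UMIs, at 418, 321, 121 and 0 CPM in the same order of mice) and in immune cells. There control 2 held 9 of the 10 UMIs, all in 1 nucleus, so they do not give a level of the class.

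*Nos1*, the neuronal synthase, marked the macula densa, the plaque of tubule cells that senses salt at the end of the thick ascending limb. This class had 36 nuclei, between 7 and 12 per mouse, and was named from *Pappa2*, *Robo2* and other genes. *Nos1* was 1185 and 1046 CPM in control mice 1 and 2 and 951 and 1569.8 CPM in knockout mice 1 and 2 (mean 1188 ± 272 CPM, SD, n = 4), with overlapping genotypes. The 85 UMIs were 53.1% of all *Nos1* UMIs in named classes, and 29 of the 36 nuclei, 80.6%, held at least 1. After thinning to 1000 UMIs the share was 61.1%, compared with 0.0789% of other thick ascending limb nuclei. These classes were alike in depth, with medians of 1840 and 1961 UMIs, and the unthinned share in the latter was 0.213%. Proximal tubule held 47 *Nos1* UMIs, or 29.4%, at a mean of 0.986 CPM, and other thick ascending limb held 16 at 1.59 CPM, next to 0 to 1.63 CPM in free RNA. There were 3 UMIs in arterial and descending vasa recta endothelium and 0 UMIs in sodium channel principal cells, which allows a level of up to 1.66 CPM there (3 UMIs, counting error only).

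*Nos3*, the endothelial synthase, was counted at similar levels in both endothelial classes. In arterial and descending vasa recta endothelium it was 76.0 and 98.7 CPM in control mice 1 and 2 and 141 and 96.0 CPM in knockout mice 1 and 2 (27 UMIs). In capillary and venous endothelium it was 54.6 and 86.0 CPM in control mice and 59.4 and 79.5 CPM in knockout mice (139 UMIs). Both classes and both genotypes overlapped. Immune cells came next with 2 UMIs, both in control 2, and thin limb had 4.00 ± 3.37 CPM (SD, n = 4), next to 1.59 to 3.33 CPM in free RNA. In the inner medullary collecting duct 5 UMIs were found and in sodium channel principal cells 3 UMIs, at 2.17 ± 2.66 and 2.32 ± 1.71 CPM, within the range of free RNA.

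The cyclase subunits were concentrated in the same interstitial classes. *Gucy1a1*, the α1 subunit, was 424 and 617 CPM in fibroblasts of control mice 1 and 2 and 397 and 322 CPM in those of knockout mice 1 and 2 (203 UMIs). *Gucy1b1*, the β1 subunit, was 160 and 156 CPM in fibroblasts of control mice and 260 and 293 CPM in those of knockout mice (86 UMIs). The genotypes did not overlap for either gene, as for 32.7% of the 7896 genes tested in fibroblasts, with *Gucy1a1* lower and *Gucy1b1* higher in knockout mice. In mural cells *Gucy1b1* was 418, 481, 241 and 901 CPM in controls 1 and 2 and knockouts 1 and 2 (16 UMIs), and *Gucy1a1* was 139, 321, 302 and 0 CPM (10 UMIs), each with overlapping genotypes.

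At least 1 UMI of *Gucy1a1* was found in 50.5% of fibroblasts and 1.29% of proximal tubule nuclei, at median depths of 1839 and 3181 UMIs, and after thinning in 36.6% and 0.438%. *Gucy1b1* was found in 26.2% and 0.256%, and after thinning in 17.8% and 0.0892%. Of the 108 fibroblasts with *Gucy1a1*, 37.0% also held *Gucy1b1*, compared with 15.1% of those without, although the former were deeper, with a median of 2024 compared with 1669.5 UMIs. Of 22 fibroblasts with *Ednra*, 17 held *Gucy1a1*, or 77.3%, compared with 47.4% of those without, at median depths of 2317 and 1749.5 UMIs. The α1 subunit was also counted in proximal tubule, where 143 of its 204 UMIs lay in 1 of 5 clusters, led by the sodium-coupled transporter genes *Slc5a12* and *Slc5a2*. The level in that cluster was 17.01 CPM over the 4 mice together and 0.269 to 3.65 CPM in the others, compared with 3.52 to 8.9999 CPM in free RNA. *Gucy1b1* was 2.38 CPM in this cluster, which lies within the free RNA range of 0.794 to 3.02 CPM.

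Across the 17 class means, on a log2(CPM + 1) scale, the subunits had a Pearson r of 0.90 with each other. *Ednra* correlated with *Gucy1b1* at 0.96 and with *Gucy1a1* at 0.86, and *Edn1* with *Nos3* at 0.68. These values are descriptions over 17 points that come from the same 4 libraries. Among 13448 genes with at least 20 CPM in some class, the genes most like *Ednrb* were *Edil3* (r = 0.82), *4930402D18Rik* (0.82) and *Rgcc* (0.80). Those most like *Ece1* were *Trim25*, *Trafd1* and *Fam171a1* (0.93, 0.91 and 0.91), and those most like *Nos3* were *Bcl6b*, *AC130815.2* and *Pik3r6* (0.94, 0.93 and 0.93). *Gucy1a1* was most like *Pdgfra*, *Ddr2* and *Serping1* (0.95, 0.95 and 0.94), *Gucy1b1* like *Vstm4*, *AC163285.1* and *Steap4* (1.00, 0.99 and 0.98), and *Ednra* like *Rgs4*, *Tusc5* and *Steap4* (0.97 each). *Nos1* was most like *Celrr*, *Gm45895* and *Btbd18* (0.96, 0.95 and 0.95) and *Edn1* like *Zfp105*, *Gm28494* and *Gm26723* (0.86, 0.84 and 0.84), and the pattern of *Nos1* rests on 1 class.

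Along the collecting duct, the question was whether the genes differ between principal cells with sodium channel genes and those of the inner medulla. *Ednrb* was lower in the inner medullary collecting duct in 4 of 4 mice, with a log2 difference of -6.96 ± 0.50 (SE, adjusted p = 4.53e-14, edgeR's quasi-likelihood test, with the mouse as a term and Benjamini-Hochberg adjustment over all genes). With 136 UMIs compared with 1 UMI, the ratio of the pooled levels was 246 (exact 95% interval of the counts 43.4 to 9794, counting error only). *Edn1* was also lower in 4 of 4 mice, by a log2 difference of -1.85 ± 0.73 (adjusted p = 0.0476), from 17 and 8 UMIs, and without control 2 its adjusted p was 0.249, without knockout 1 0.0659 and without knockout 2 0.144. *Ece1* did not pass the test (log2 difference 0.50 ± 0.43, adjusted p = 0.405), and its levels in both classes were below those in free RNA. These 2 calls among 3 genes tested stand beside 34.9% of the 13580 genes tested in this comparison. Here and below the classes were clustered from the same nuclei without the 8 genes, so that these p-values take the classes as given. Of the other pathway genes named in the comparisons between classes, *Cav1*, *Ass1*, *Abcc4*, *Pde3b*, *Pde3a*, *Pde10a*, *Gucy1a2*, *Mrvi1*, *Npr3*, *Prkg1*, *Plcb4* and *Mme* were among the genes used for clustering, so their differences are descriptions of the classes, and counts are also given for the genes that were not used.

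Among the genes listed for nitric oxide synthesis and its regulation, 18 were tested along the collecting duct, and 5 were higher and 4 lower in the inner medulla, or 4 and 3 of the 14 not used for clustering. *Cav1*, which encodes caveolin-1, a protein that binds and inhibits endothelial nitric oxide synthase, was 274 CPM in sodium channel principal cells and 20.5 CPM in the inner medulla (log2 difference -3.63 ± 0.26). *Nos1ap*, which encodes an adaptor of the neuronal synthase, was 432 and 150 CPM (log2 difference -1.48 ± 0.15, adjusted p = 2.42e-10 by edgeR) and was not used for clustering. Of 12 cyclic GMP genes tested, 5 were higher and 3 lower in the inner medulla, or 3 and 1 of the 5 not used for clustering. *Abcc4*, which encodes a cyclic nucleotide exporter, was higher there (log2 difference 2.74 ± 0.17), and the phosphodiesterase gene *Pde3b* was lower (-2.01 ± 0.18). Of 12 genes of endothelin receptor signaling tested, 3 were higher and 3 lower, among them *Itpr3* (1.61 ± 0.41) and *Itpr1* (-1.25 ± 0.13), both of which encode inositol trisphosphate receptors. The median log2 differences of these lists were 0.23, 0.59 and 0.13, beside 0.07 over all genes tested.

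Between endothelial and interstitial cells, 6 of the 8 genes differed, with 3 in each direction. *Ednrb* (log2 difference 4.60 ± 0.30, adjusted p = 2.71e-51) and *Ece1* (2.32 ± 0.29, adjusted p = 7.64e-14) were higher in endothelial cells in 4 of 4 mice, and *Nos3* had 166 UMIs in endothelial and 0 in interstitial cells (adjusted p = 1.28e-12), which is at least 11.2-fold higher against 3 UMIs over the interstitial nuclei. *Gucy1a1* (-6.55 ± 0.32, adjusted p = 2.46e-91) and *Gucy1b1* (-6.37 ± 0.41, adjusted p = 3.23e-52) were lower in endothelial cells in 4 of 4 mice. *Ednra* was lower too (-6.54 ± 0.71, adjusted p = 7.25e-19), with 1 UMI in endothelial and 40 UMIs in interstitial cells, a ratio of pooled levels of 198 (exact interval of the counts 33.6 to 8021). *Edn1* did not pass the test (2.63 ± 1.18, adjusted p = 0.101), with 30 UMIs in endothelial cells and 1 in interstitial cells, and passed only without knockout 1, which held that UMI (adjusted p = 0.0229). All tests are edgeR's, as above, and the 6 calls among 7 genes tested stand beside 21.6% of 12906 genes.

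Other genes of the pathway divided in the same comparison. Of 16 cyclic GMP genes tested, 2 were higher and 10 lower in endothelial cells, with a median log2 difference of -1.86 beside 0.15 over all genes, and of the 6 not used for clustering 1 was higher and 3 were lower. The lower genes included *Gucy1a2*, the α2 subunit of the cyclase, at 4.45 CPM in endothelial and 972 CPM in interstitial cells (log2 difference -7.42 ± 0.27), *Mrvi1*, which encodes a target of cyclic GMP-dependent kinase (-6.66 ± 0.47), and the phosphodiesterase genes *Pde3a* (-6.70 ± 0.23) and *Pde1a* (-3.44 ± 0.25). Of 20 genes of nitric oxide synthesis tested, 6 were higher in endothelial cells and 1 was lower, or 4 and 1 of the 16 not used for clustering. *Gch1*, which encodes the first enzyme of synthesis of the cofactor tetrahydrobiopterin, had 132 UMIs in endothelial and 0 in interstitial cells, and *Gchfr*, its feedback regulator, was higher as well (1.95 ± 0.30, adjusted p = 7.00e-10). *Slc7a2*, a transporter of arginine, the substrate of the synthases, was the lower gene, with 1 and 12 UMIs. Of 12 genes of endothelin receptor signaling 4 were higher and 4 lower, with *Plcb4*, a phospholipase C, at 342 and 69.7 CPM and *Prkca*, a protein kinase C, at 67.9 and 561 CPM in endothelial and interstitial cells. *Mme*, which encodes a peptidase that degrades endothelin, was the gene tested among the other endothelin genes. It passed as lower in endothelial cells (log2 difference -1.24) but did not have the same direction in every mouse, so it falls outside the rule for naming genes.

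**Figure D2:**
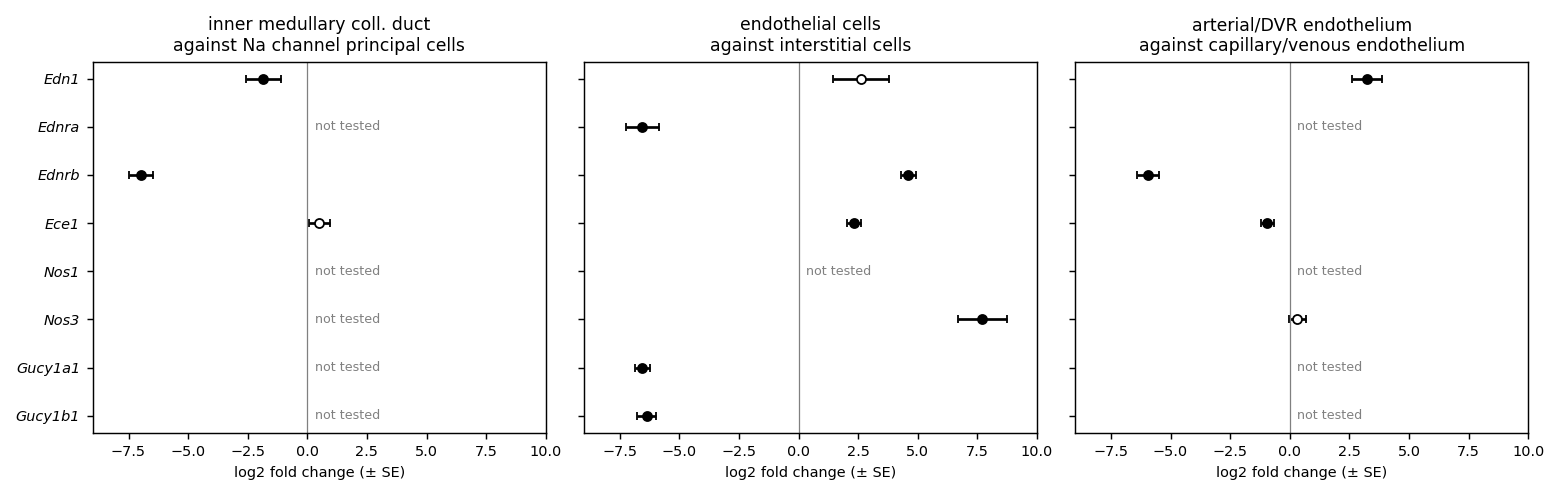
Log2 difference (x axis, ± SE) of each gene (y axis) in 3 comparisons between classes, with the mouse as a term and the first class named in each title taken against the second. Filled points passed the test (adjusted p under 0.05), open points did not, and genes with under 10 UMIs were not tested. *Ednrb* was at -6.96 in the inner medullary collecting duct, 4.60 in endothelial against interstitial cells and -5.94 in arterial against capillary endothelium.

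Within the endothelium, the ligand and its B receptor were opposite. *Ednrb* was at 16.9 and 10.96 CPM in arterial and descending vasa recta endothelium of control mice 1 and 2 and at 0 CPM in knockout mice 1 and 2, from 3 UMIs, far below capillary and venous endothelium in 4 of 4 mice (log2 difference -5.94 ± 0.44, adjusted p = 1.46e-38). The ratio of pooled levels was 52.7 (exact interval of the counts 17.997 to 256), and the level in the arterial class over the 4 mice together was 10.6 CPM, next to 10.7 to 16.3 CPM in free RNA. *Edn1* was higher in the arterial class in 4 of 4 mice (3.24 ± 0.65, adjusted p = 1.92e-05). *Ece1* was lower in 4 of 4 mice (-0.93 ± 0.29, adjusted p = 0.0175), but the call was lost without control 1 (adjusted p = 0.458), without knockout 1 (0.0906) and when counts were scaled by library totals (0.0953). *Nos3* was higher in 4 of 4 mice but did not pass (0.32 ± 0.37, approximate 95% interval -0.40 to 1.04, adjusted p = 0.746). The 3 calls among 4 genes stand beside 9.41% of 12102 genes, of which 406 were higher and 733 lower, or 527 and 541 with library totals.

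Among the endothelial subclusters, the 4 capillary and venous ones all held *Ednrb*, at 928 CPM in the subcluster led by *Nlgn1* and *Igf1*, 555 CPM in that with *Piezo2* and *Aplnr*, 459 CPM in that with *Pdzrn3* and *Col8a1* and 373 CPM in that led by *Btnl9* and *Esm1*, each over the 4 mice together. *Ece1* had another order, with 286 CPM in the *Btnl9* subcluster, 258 CPM in the *Piezo2* subcluster, 124 CPM in the *Nlgn1* subcluster and 73.5 CPM in the *Pdzrn3* subcluster. In the arterial class, the subcluster with *Slc14a1* and *Aqp1*, a urea transporter and a water channel of descending vasa recta, had *Edn1* at 102 CPM, *Nos3* at 109 CPM and *Ednrb* at 0 UMIs in 80 nuclei. The other, with *Slc14a1* and *Lgr6*, had *Edn1* at 29.4 CPM, from 4 UMIs of control 2, and *Ednrb* at 22.0 CPM. Subclusters were not tested against each other. In single nuclei of capillary and venous endothelium, *Ednrb* was found in 54.3% of those with *Nos3* and 46.2% of those without, at median depths of 1482 and 1404.5 UMIs, and in 42.5% of those with *Ece1* and 48.5% of those without.

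**Figure D3:**
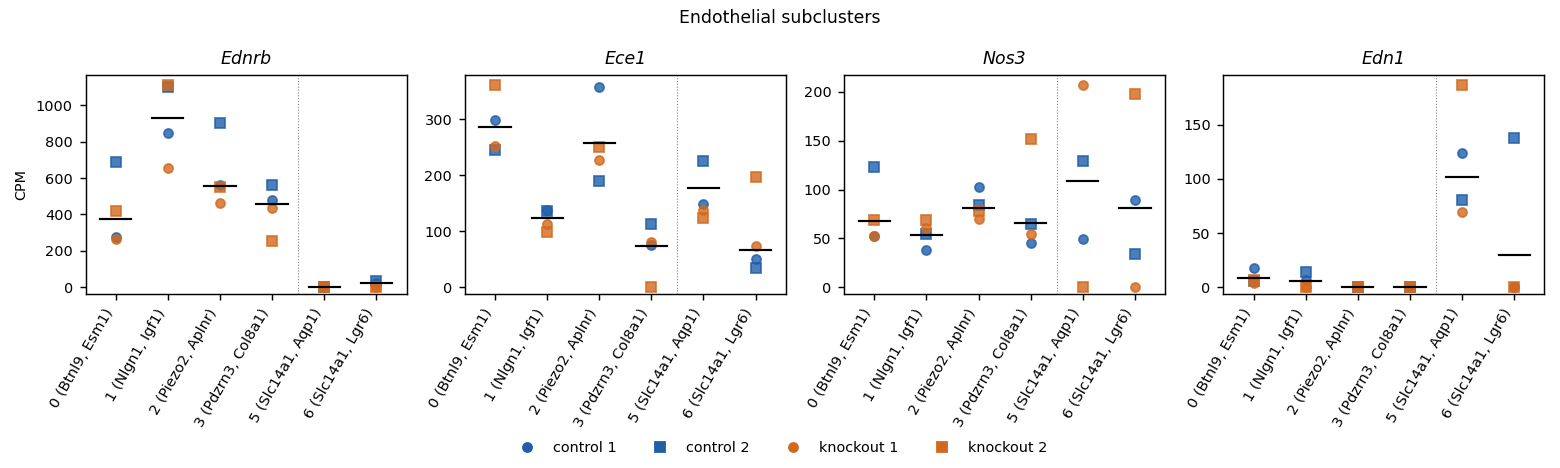
Level of *Ednrb*, *Ece1*, *Nos3* and *Edn1* (y axis, CPM, linear scale that differs between panels) in 6 endothelial subclusters (x axis, number and 2 leading or defining genes) in each mouse (points), with the level over the 4 mice together as a bar. The dotted line separates 4 capillary and venous from 2 arterial and descending vasa recta subclusters, and *Ednrb* was at least 373 CPM left of it and at most 22.0 CPM right of it.

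Of the other pathway genes in this comparison, 19 of nitric oxide synthesis were tested, with 1 higher and 3 lower in the arterial class. Of the 15 not used for clustering 2 passed, and both were lower. *Cav1* was higher (216 and 107 CPM, log2 difference 0.80 ± 0.28) and *Nos1ap*, *Gchfr* and *Ass1* were lower, by -2.52 ± 0.41, -1.93 ± 0.36 and -1.22 ± 0.27. *Npr3*, the clearance receptor for natriuretic peptides, was 10.1 CPM in the arterial and 270 CPM in the capillary class, and *Prkg1*, cyclic GMP-dependent kinase I, was 253 and 1085 CPM. In all, 1 of 13 cyclic GMP genes was higher and 4 were lower, and all 5 of these were among the genes used for clustering. In endothelin receptor signaling 1 of 11 genes was higher (*Prkca*, 246 and 46.2 CPM) and 1 was lower, the phospholipase C gene *Plcb1*, with means over the 4 mice of 908 and 1499 CPM, which was named after its values were seen. The median log2 difference over all genes was -0.22, and those of the 3 lists were -0.35, -0.68 and -0.37.

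In macula densa against other thick ascending limb, a comparison added after the clusters were seen, *Nos1* was higher in 4 of 4 mice (log2 difference 9.56 ± 0.43, edgeR with counts scaled by library totals). *Nos1* was among the leading genes of the cluster when the comparison was added, so this value is a description, beside 2.66% of 14767 genes that passed. *Ece1* had 238 UMIs in other thick ascending limb and 0 in macula densa, where 3 UMIs would be 42.4 CPM, more than its 21.7 CPM in the former, so that no difference was detectable at this depth, and the other genes were also at 0 UMIs in macula densa. Among the pathway genes, the phosphodiesterase gene *Pde10a* was 1221 CPM in macula densa and 29.4 CPM in other thick ascending limb (5.41 ± 0.33), *Pde1a* was 178 and 1332 CPM (-2.86 ± 0.35) and *Gucy1a2* was 137 and 4.45 CPM (4.99 ± 0.85). The receptor signaling genes *Prkca* (2.10 ± 0.47) and *Plcb1* (0.81 ± 0.19) were higher as well.

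**Figure D4:**
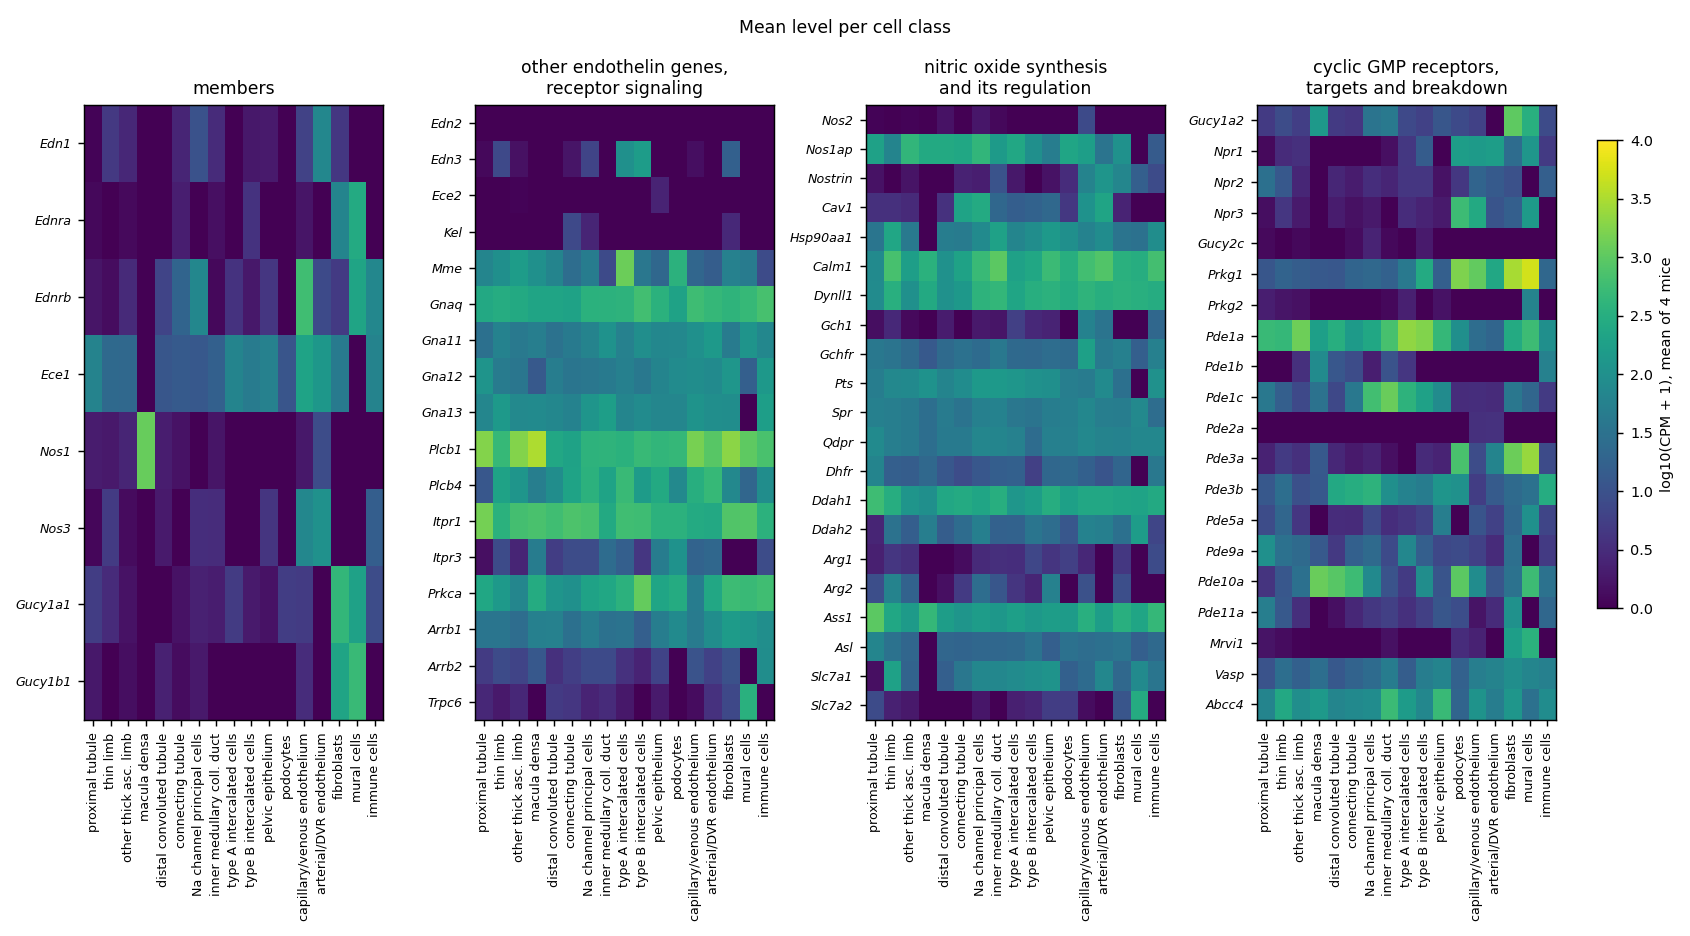
Mean level over the 4 mice (color, log10(CPM + 1)) of the 8 genes and of the other genes of the endothelin, nitric oxide and cyclic GMP lists (rows) in 17 cell classes (columns). *Prkg1*, *Pde3a* and *Gucy1a2* had their highest levels in the same mural and fibroblast columns as *Gucy1a1* and *Gucy1b1*.

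Levels of other genes of the pathway over the 17 classes completed the map. *Edn3*, another endothelin ligand, was highest in type B intercalated cells, at 133 and 274 CPM in control mice 1 and 2 and 120 and 117 CPM in knockout mice 1 and 2, and second in type A intercalated cells at 99.2 CPM. *Edn2*, the remaining ligand, had 0 UMIs in nuclei of named classes. *Mme* was highest in type A intercalated cells (1088, 1220, 1302 and 1444 CPM in the same order of mice). *Gch1* and *Gchfr* were highest in capillary and venous endothelium at 58.0 and 189 CPM, *Nostrin*, which encodes a protein that traffics endothelial nitric oxide synthase, in arterial and descending vasa recta endothelium at 121 CPM, and *Nos2*, the inducible synthase, in capillary and venous endothelium at 7.02 CPM. *Prkg1* was highest in mural cells (8085, 7535, 3260 and 2704 CPM) and second in fibroblasts at 3017 CPM.

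The comparison of knockout and control mice asked whether loss of AP-2α in the collecting duct changed these genes there or elsewhere. With 136 pairs of a gene and a class, 38 had at least 10 UMIs and were tested, and 0 were called after adjustment in the quasi-likelihood fit of edgeR on the sums per mouse (threshold 0.05). At an unadjusted p under 0.05 the number was also 0 (smallest p 0.0523, *Ednrb* in immune cells, where 1 nucleus of control 2 held 9 of 10 UMIs), and 0 pairs were called by DESeq2, which gave 4 of the 38 no adjusted p. Over all genes and the 17 classes 0.00382% of 156917 pairs were called, and 2.96% had an unadjusted p under 0.05. The log2 differences were above 0 in 18 pairs and below 0 in 20, and adjusted p-values ran from 0.747 to 1.00. The genotypes did not overlap in 9 of the 38 pairs, beside 29.9% of all pairs tested. With 2 mice per group an exact permutation test of 1 gene cannot go below p = 0.333, so that p-values rest on edgeR's model of the spread between mice.

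In the principal cells, which are among the cells in which *Hoxb7Cre* acts, *Ednrb* was 5.78 and 37.1 CPM in control mice 1 and 2 and 38.8 and 24.1 CPM in knockout mice 1 and 2 (log2 difference of knockout against control 0.50 ± 0.61, adjusted p = 1.00 by edgeR). In the sodium channel principal cells, a class chosen for this comparison after its values were seen, the difference was 0.34 ± 0.44 (approximate 95% interval -0.53 to 1.21), and without control 1, the low mouse, it was -0.15. *Edn1* in principal cells was 4.34 and 6.79 CPM in control mice and 0.970 and 6.69 CPM in knockout mice (-0.69 ± 0.86, adjusted p = 1.00). *Ece1* there was 18.8 and 11.5 CPM in control mice and 9.70 and 20.1 CPM in knockout mice (-0.05 ± 0.49), levels not above free RNA. Outside the rule for this comparison, *Ece1* differed by -0.11 ± 0.47 in type A intercalated cells, -0.51 ± 0.62 in type B intercalated cells and 0.22 ± 0.47 in pelvic epithelium. The genotypes overlapped in principal cells for each of these genes. The approximate intervals, which are narrower than the test allows, leave room for changes of more than 1 on the log2 scale for *Ednrb* (-0.70 to 1.71) and *Edn1* (-2.36 to 0.99).

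In the classes with the highest levels, outside the Cre lineage, no difference passed the test. *Ednrb* differed by -0.35 ± 0.32 in capillary and venous endothelium, *Ece1* by 0.14 ± 0.28 and *Nos3* by 0.03 ± 0.34 (log2 difference of knockout against control ± SE). *Nos3* was 0.40 ± 0.71, *Edn1* -0.08 ± 0.87 and *Ece1* 0.07 ± 0.67 in arterial and descending vasa recta endothelium. Of the values outside the rule for this comparison, named after they were seen, *Edn1* differed by -1.84 ± 1.01 in capillary and venous endothelium (11 UMIs). The genotypes did not overlap there, beside 29.9% of all pairs of a gene and a class that did not overlap. The other of these values was -1.37 ± 0.65 for *Edn1* in all endothelial cells (unadjusted p = 0.0548, adjusted p = 0.998 by edgeR). *Nos1* differed by 0.27 ± 0.55 in macula densa (approximate 95% interval -0.80 to 1.35). *Ednra* differed by -2.18 ± 1.32 in mural cells (adjusted p = 0.747 by edgeR), with genotypes that did not overlap, beside 41.8% of genes tested in that class, and by -0.26 ± 0.60 in fibroblasts.

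The cyclase subunits in fibroblasts had differences of opposite sign. *Gucy1a1* had a log2 difference of -0.55 ± 0.39 and *Gucy1b1* of 0.79 ± 0.40 (adjusted p = 0.991 for each by edgeR), so neither passed. The ratio of *Gucy1a1* to *Gucy1b1* UMIs was 2.65 and 3.95 in control mice 1 and 2 and 1.53 and 1.10 in knockout mice 1 and 2. The genotypes could not overlap in this ratio, because neither gene overlapped and their directions were opposite, so it is no further result. Called doublets left out, it was 2.85 and 4.59 in control mice and 1.47 and 1.22 in knockout mice. This ratio was examined after the values were seen. Its exact two-sided permutation p of 0.333 is the smallest that this design allows and was fixed by those values, so nothing is concluded from it. In mural cells the differences were -0.03 ± 1.48 for *Gucy1a1* and -0.10 ± 1.16 for *Gucy1b1*, on 10 and 16 UMIs.

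**Figure D5:**
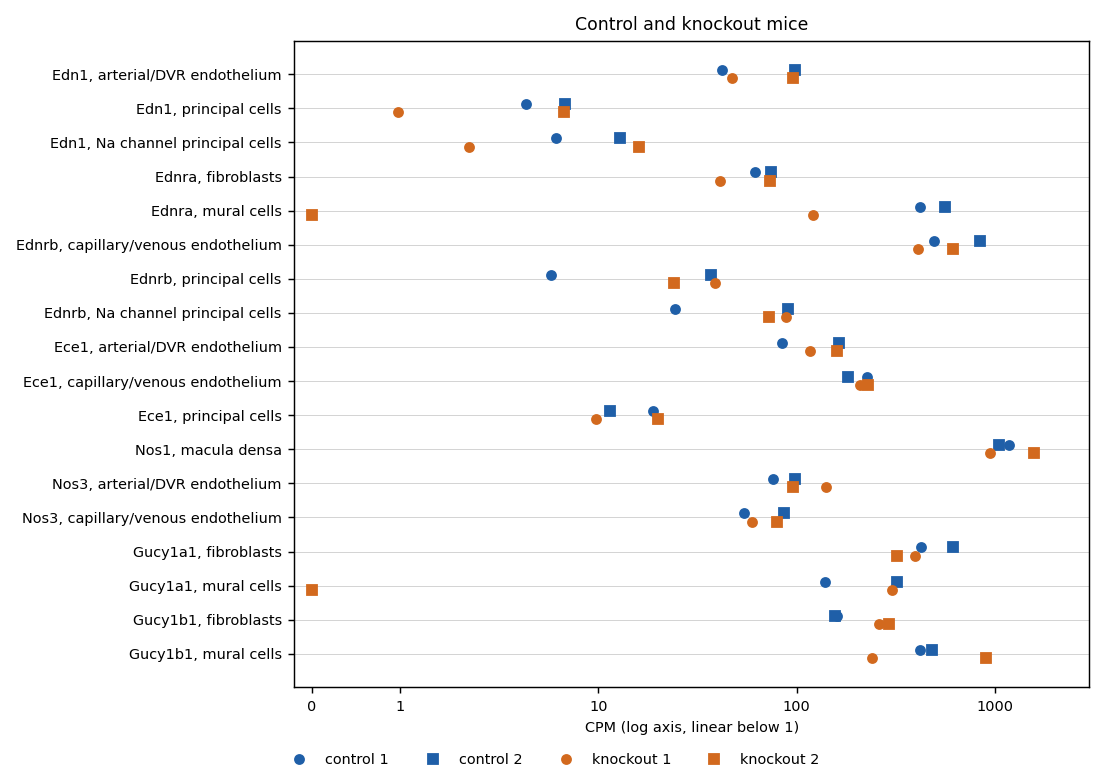
Level (x axis, CPM, log scale that is linear below 1) of the genes in the classes named for the comparison of genotypes (y axis), in 2 control and 2 knockout mice (points). The genotypes overlapped in 15 of the 18 lines shown, and did not for *Ednra* in mural cells and *Gucy1a1* and *Gucy1b1* in fibroblasts, beside 29.9% of all pairs of a gene and a class that did not overlap.

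Of the other genes of the pathway lists, 575 pairs of a gene and a class were tested between the genotypes, and 0 were called by edgeR and 0 by DESeq2. An unadjusted p under 0.05 was found in 34 pairs by edgeR, or 5.91%, and in 7 by DESeq2, beside 2.96% of the pairs of all genes by edgeR. With the replicate number as a block, 4 of these pairs were called, and 69, or 12.0%, had an unadjusted p under 0.05 by edgeR. The share of all pairs with this block is not given here. The block also raised the number of all genes called in several classes, so these calls were not read as a result about the lists.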

How the data were processed

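Kidney tissue kept in RNAlater was processed to nuclei and sequenced by 10x Genomics 3′ chemistry. Per the study's methods and the submitters' processing notes, the authors aligned reads to mm10 with Cell Ranger 3.0.2. The deposited values are UMI counts, whole numbers per gene and barcode with no normalization and with every barcode included, and 0 columns were left unused.

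In each library the 10000 largest barcodes were taken, and nuclei were required to have over 500 and fewer than 4000 genes and a mitochondrial share under 5%. Nuclei were clustered with Seurat 5.3.0 (2000 variable genes without the 8 members, 30 dimensions, resolution 0.5), and a cluster was named only from at least 3 detected markers of a class. Doublets were called with Scrublet in Scanpy and kept, except in clusters with over 50% doublets, which were set aside. Counts were summed per mouse and class. Genes with at least 10 UMIs were tested with edgeR 4.0.16 (quasi-likelihood, TMM scaling, Benjamini-Hochberg adjustment over all genes tested, threshold 0.05). Contrasts between classes had the mouse as a term. The macula densa contrast was scaled by library totals, a choice made after its values were seen. Alternatives were the size factors and the test of DESeq2 1.42.0, no filter on low counts, the fit with or without replicate numbers or mice as a block, doublets left out, resolution 0.8, mitochondrial share under 1%, free RNA subtracted (at most 50% of a sum), library totals, and each mouse left out in turn. Free RNA was measured in barcodes with under 100 UMIs. The edgeR fit was tested on simulated data for the contrasts between classes. Between genotypes this was done for capillary and venous endothelium, sodium channel principal cells, fibroblasts and macula densa only. The test and size factors of DESeq2, the replicate block between genotypes and the fits without a mouse were not simulated.

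The members, the lists and the contrasts were chosen with earlier results of these data known. All 8 members were described in every class. Knockout was compared with control for each member in the pair of classes where it was highest and in all principal cells, where at least 10 UMIs were present, and *Ednrb* in sodium channel principal cells was added after its values were seen. From each list of pathway genes, at most 4 called genes with the largest fold change and the same direction in all 4 mice were named, and for likeness the 3 genes with the highest correlation. Each library was 1 mouse, so p-values between genotypes measure the spread between 2 mice per genotype. Those between classes measure how the class difference varied over the 4 mice. Standard errors of log2 differences by edgeR were derived from the log2 difference and the quasi-likelihood F of its test. Intervals of log2 differences use a normal approximation with these standard errors, so they are narrower than the test allows. For *Gucy1b1* between genotypes in fibroblasts the interval was 0.00817 to 1.56, at an unadjusted p of 0.0717 by edgeR. Exact intervals of ratios and limits from 0 UMIs cover counting error only. The numbers 1 and 2 of the mice name them, and no source pairs them, though libraries with the same number were alike in total UMIs. Pericytes and smooth muscle were not contrasted with fibroblasts, because they could not be separated from mesangial and renin cells. The list of endothelin receptor signaling was used without 1 gene, which is not reported here.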

Additional observations from a re-analysis of the deposited data

How the results depend on the processing

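The low UMI counts of *Edn1* and *Ednra* and the few mural and macula densa nuclei limit every value given for them. The signs of the class contrasts of the members held under every alternative, except *Nos3* in arterial against capillary endothelium at a mitochondrial share under 1% (log2 fold change -0.079). *Edn1* in inner medullary collecting duct lost its call with adjusted p = 0.169 by DESeq2, 0.0660 without the filter, 0.0718 with no replicate block, 0.0762 with free RNA subtracted, and 0.0659 to 0.249 without control 2, knockout 1 or knockout 2. *Ece1* in arterial endothelium lost its call with adjusted p = 0.0953 by library totals, 0.0550 by the size factors of DESeq2, 0.323 by the test of DESeq2 and 0.770 at a mitochondrial share under 1%, and without control 1 (0.458) or knockout 1 (0.0906). *Edn1* in endothelial cells gained a call without knockout 1 (0.0229). No other call of a member in a class contrast changed.

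The number of all genes called between classes moved as follows. DESeq2 called 2698 genes in inner medullary collecting duct against sodium channel principal cells in place of 4734, 1662 in endothelial against interstitial cells in place of 2789, and 637 in arterial against capillary endothelium in place of 1139. At a mitochondrial share under 1% the last 2 of these counts were 1135 and 357. Leaving out each mouse gave 723 to 969 genes in arterial against capillary endothelium, with 723 without control 1. In macula densa against other thick ascending limb, TMM called 760 genes (139 higher and 621 lower) in place of 393, and leaving out each mouse gave 221 to 267. The fits at a mitochondrial share under 1% were not made for macula densa, mural or immune cells.

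No member was called between knockout and control under any alternative. The number of all genes called, with the replicate number as a block, was 1 in arterial endothelium (0 without it), 28 in sodium channel principal cells (2), 32 in principal cells (0), 1 in mural cells (0), 5 in fibroblasts (0), 11 in capillary endothelium (2) and 1 in macula densa (0). Deviations of mice with the same number had correlations across genes of 0.447 in proximal tubule, 0.506 in other thick ascending limb, 0.429 in principal cells and 0.328 in endothelial cells. Control 1 and knockout 1 were also alike in library totals (42138345 and 44964099 UMIs), as were control 2 and knockout 2 (24998797 and 22179410 UMIs). Median mitochondrial shares were 1.66% and 1.05% for number 1 and 0.671% and 0.417% for number 2. What mice with the same number share was not tested. Without the filter the counts of genes called were 23 in sodium channel principal cells, 27 in principal cells, 13 in fibroblasts and 31 in capillary endothelium. With free RNA subtracted they were 4 in sodium channel principal cells, 1 in principal cells and 0 in capillary endothelium, with doublets left out 1 in sodium channel principal cells and 1 in capillary endothelium, and at a mitochondrial share under 1% they were 10 in sodium channel principal cells, 4 in fibroblasts and 0 in capillary endothelium. DESeq2 called 2 genes in principal cells and 1 in capillary endothelium, and its size factors gave 1 in capillary endothelium. Leaving out each mouse gave 0 to 2 in arterial endothelium, 0 to 9 in sodium channel principal cells, 0 to 12 in principal cells, 0 to 3 in mural cells, 0 to 10 in fibroblasts, 2 to 45 in capillary endothelium and 0 to 2 in macula densa.

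Some log2 fold changes of the members between knockout and control changed sign, none of which had been called. At a mitochondrial share under 1% *Ednra* in fibroblasts was 0.72 and *Ednrb* in capillary endothelium 0.092. Without the filter *Ece1* in arterial endothelium was -0.10 and *Gucy1a1* in mural cells 0.0097. With doublets left out *Nos3* in capillary endothelium was -0.039 and *Gucy1b1* in mural cells 0.36. With free RNA subtracted *Gucy1a1* and *Gucy1b1* in mural cells were 0.17 and 0.11, and DESeq2 gave 0.0063 for *Gucy1b1*. Leaving out each mouse gave a range of -0.56 to 0.68 for *Edn1* in arterial endothelium, -2.15 to 0.60 in sodium channel principal cells and -2.46 to 0.22 in principal cells, -0.70 to 0.073 for *Ednra* in fibroblasts, -0.70 to 0.070 for *Ednrb* in capillary endothelium, -0.23 to 2.45 in principal cells and -0.15 to 1.71 in sodium channel principal cells. For *Ece1* the range was -0.022 to 0.29 in capillary endothelium, -0.30 to 0.69 in arterial endothelium and -0.63 to 0.41 in principal cells. It was -0.18 to 0.46 for *Nos1* in macula densa, -0.31 to 0.35 for *Nos3* in capillary endothelium and -0.64 to 0.93 for *Gucy1b1* in mural cells, and *Gucy1a1* in mural cells was 0.50 without knockout 2, the mouse whose removal left a fit. The cause of these changes was not tested. Levels moved by more than the spread between mice in 5 cases: *Ednra* in mural cells was 617 CPM with doublets left out, and with free RNA subtracted *Ednra* in fibroblasts was 81.5 CPM, *Ece1* in capillary endothelium 255 CPM, *Nos3* in capillary endothelium 86.4 CPM and *Gucy1a1* in fibroblasts 577 CPM.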
